A study of Mus musculus with 6 samples.

Results

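Many genes are read into more than 1 RNA, and the transcripts described here are those of genes for which at least 2 were counted well enough to follow separately. A transcript ID (a UCSC identifier starting with uc) entered when it had 100 or more counts in every library, matched a protein-coding gene by same-strand exon overlap of at least 50% of its exonic bases on build mm10, and had at least 1 companion of the same gene that did so too. This gave 387 IDs of 185 genes out of 59121 IDs counted: 171 genes had 2 such IDs, 11 had 3, and Auh, Brwd1 and Cyhr1 had 4. The quantity followed is the share, the percentage of a gene's counts that fell to 1 of its IDs, with every matched ID of the gene in the denominator. The members were thus chosen by their counts in all libraries.

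Total RNA was sequenced from kidney collecting duct cells of male mice of the inbred strain C57BL/6J, kept for 5 days on a low-NaCl diet (0.01 to 0.02% sodium, 3 libraries) or a high-NaCl diet (2.4% sodium, 3 libraries). The labels name no transgene or deletion, and the age of the mice and the way the cells were isolated were not given in the sources used here. Nothing in the labels says whether each library came from a separate animal, so the p-values reflect how far these libraries spread, and that spread may be purely technical. The libraries held 40101899 to 46861531 counts.

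The collecting duct is the last stretch of the kidney tubule, where principal cells take up sodium and water and intercalated cells move acid and base. A low sodium intake raises aldosterone, the steroid hormone that acts on principal cells. A single gene can make different RNAs in several ways: by starting at another promoter, by joining another version of an internal exon, or by ending early at a cleavage and polyadenylation site inside an intron. The protein can then begin differently, differ in a stretch of its middle, or lack its end, while the gene's total RNA can stay the same.

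Only reads that touched a single ID were counted, so each ID is measured on its countable bases, the exonic bases that no other ID covers on either strand. The 387 IDs had a median of 1211 countable bases (66 to 8106), a median of 58.5% of their exonic bases, and 123 of them had no countable coding base. By where the countable bases lay, 41 IDs were counted on a first exon, 39 on internal exons, and 52 were single exons. Another 112 were counted on an upstream last exon, with at least 50% of the countable bases inside an intron of a companion ID, and 143 on another last exon. The exons of 306 IDs joined at the same introns as a GENCODE transcript, 258 of them annotated as protein-coding, 24 as retained intron, 14 as processed transcript and 10 as targets of nonsense-mediated decay, the decay of RNAs with an early stop codon. For 50 IDs a gene on the opposite strand overlapped, and the counting did not use strand.

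The sequences that tell companions apart are shown for 4 genes, taken from GENCODE vM21 on build GRCm38 (mm10), plus strand. For Tsc22d1 and Rnf128 they are the first coding bases of the alternative first exons, with the start codon in capitals, because these exons are where the companions were counted. The bases printed for the Tsc22d1 long form were not countable themselves, and this ID was counted on other parts of the same exon. They lie at chr14:76416083-76416232, chr14:76504717-76504841, chrX:139563478-139563627 and chrX:139610806-139610955.
Tsc22d1 long form, uc007uri.2: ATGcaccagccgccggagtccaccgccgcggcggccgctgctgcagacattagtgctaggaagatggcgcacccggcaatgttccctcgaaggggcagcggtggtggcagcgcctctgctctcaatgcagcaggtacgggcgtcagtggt
Tsc22d1 short form, uc007urk.2: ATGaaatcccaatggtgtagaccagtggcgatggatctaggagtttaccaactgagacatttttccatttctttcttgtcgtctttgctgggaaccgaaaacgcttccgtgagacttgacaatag
Rnf128 upstream start, uc029xnd.1: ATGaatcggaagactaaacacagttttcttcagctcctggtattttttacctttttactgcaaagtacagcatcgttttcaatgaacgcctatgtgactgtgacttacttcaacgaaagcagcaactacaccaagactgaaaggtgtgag
Rnf128 downstream start, uc009uki.2: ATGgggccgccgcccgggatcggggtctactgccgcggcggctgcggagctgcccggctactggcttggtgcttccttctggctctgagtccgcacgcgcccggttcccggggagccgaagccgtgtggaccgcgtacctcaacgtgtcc

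For Slc12a1 and Pkm the alternatives are internal exons of equal length, of which an RNA normally keeps 1. Capitals mark the positions at which the versions of a gene differ. Slc12a1 has 3 versions of 96 bases in a row, at chr2:125165495-125165590, chr2:125166123-125166218 and chr2:125166673-125166768, known in that order as B, A and F. The first shares 63 of 96 bases (65.6%) with the second and 66 (68.8%) with the third, and it is the only one with countable bases of its own among the members. The Pkm pair of 167 bases each lies at chr9:59675029-59675195 and chr9:59675568-59675734, with 103 identical bases (61.7%). Its upstream exon makes the M1 form of the enzyme and its downstream exon the M2 form.
Slc12a1 B version, counted as uc008mcj.1: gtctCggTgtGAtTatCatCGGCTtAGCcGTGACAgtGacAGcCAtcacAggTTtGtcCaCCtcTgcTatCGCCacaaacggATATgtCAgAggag
Slc12a1 A version: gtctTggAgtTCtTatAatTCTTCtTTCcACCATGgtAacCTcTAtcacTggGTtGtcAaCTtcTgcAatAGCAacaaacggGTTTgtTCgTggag
Slc12a1 F version: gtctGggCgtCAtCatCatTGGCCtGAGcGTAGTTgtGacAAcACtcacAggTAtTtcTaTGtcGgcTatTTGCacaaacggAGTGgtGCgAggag
Pkm M1 exon, counted as uc009pyh.2: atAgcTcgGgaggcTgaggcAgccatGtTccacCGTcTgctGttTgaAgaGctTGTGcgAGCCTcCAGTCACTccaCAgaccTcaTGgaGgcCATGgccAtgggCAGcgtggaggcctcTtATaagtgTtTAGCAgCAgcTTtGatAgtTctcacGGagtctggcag
Pkm M2 exon, counted as uc009pyi.2: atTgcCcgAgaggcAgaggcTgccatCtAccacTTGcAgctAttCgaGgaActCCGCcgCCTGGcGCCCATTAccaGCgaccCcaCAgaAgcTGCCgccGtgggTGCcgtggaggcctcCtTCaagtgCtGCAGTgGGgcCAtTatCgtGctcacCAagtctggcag

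In most of the genes the same ID held the largest share of the counts on either diet. Shares were not corrected for the number of countable bases, so the leading ID need not be the most abundant RNA. The leading ID of a gene held a median of 75.9% of its counts, and in 41 genes it held over 90%. The mean shares of an ID on the diets differed by a median of 1.98 percentage points, next to a median SD between libraries of 1.80 points with low NaCl and 2.36 points with high NaCl. A difference of 10 points or more was measured for 28 IDs of 15 genes. The leading ID was a different one on the other diet in 9 genes, of which Lrrc31 and Fxyd2 showed the widest gap and Clpb and Sorl1 the narrowest.

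To ask whether any share differed with diet, the count of an ID was set against the rest of its gene's counts in each library, and the difference is given as a log2 odds ratio of the share, low-NaCl minus high-NaCl. The test (edgeR's quasi-likelihood test, Benjamini-Hochberg adjustment over 2772 tested IDs of 1291 genes, threshold 0.05) called 0 of the 387 IDs and 0 of the 185 genes, where 0.0722% of all tested IDs and 0.0775% of all tested genes were called. At an unadjusted p under 0.05 there were 34 IDs (8.79%, against 8.48% of all tested) and 16 genes (8.65%, against 7.98% of all tested). With DESeq2 on the same columns 7 IDs were called, in Lrrc31, Tsc22d1, Snx12 and Fxyd2, where 1.06% of all IDs with an adjusted p were. Other alternatives called 0 to 15 members, edgeR on IDs with a mean of 100 or more counts 13 of them. No member's share described below passed the reported edgeR test, and the values are given with that limit.

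The 1 gene called over all tested was Kcnj1, the potassium channel ROMK of the distal nephron, which was no member because its minor ID had 18 to 28 counts with low NaCl. That ID, uc009ory.1, held 1.92% ± 0.381 of the gene's counts with low NaCl and 13.7% ± 5.27 with high NaCl (SD, n = 3 each). The log2 odds ratio was -2.97 (SE 0.37, adjusted p = 0.0128). It was named after its values were seen.

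Shares of the diets did not overlap for 93 of the 387 IDs (24.0%), where 16% of all tested IDs did not overlap. These lay in 49 of the 185 genes (26.5%), where 19.3% of all tested genes had such an ID. In 46 of the 93 IDs every low-NaCl share was the higher, and in 47 every low-NaCl share was the lower. In 171 genes there were 2 member IDs, whose shares nearly mirror each other. A near-even split therefore follows largely from the way shares are built and says little about direction. Depth moved with this count: the members' mean count over libraries had a median of 604, against 48.5 for the other tested IDs, and its part in the difference was not tested.

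**Figure D1:**
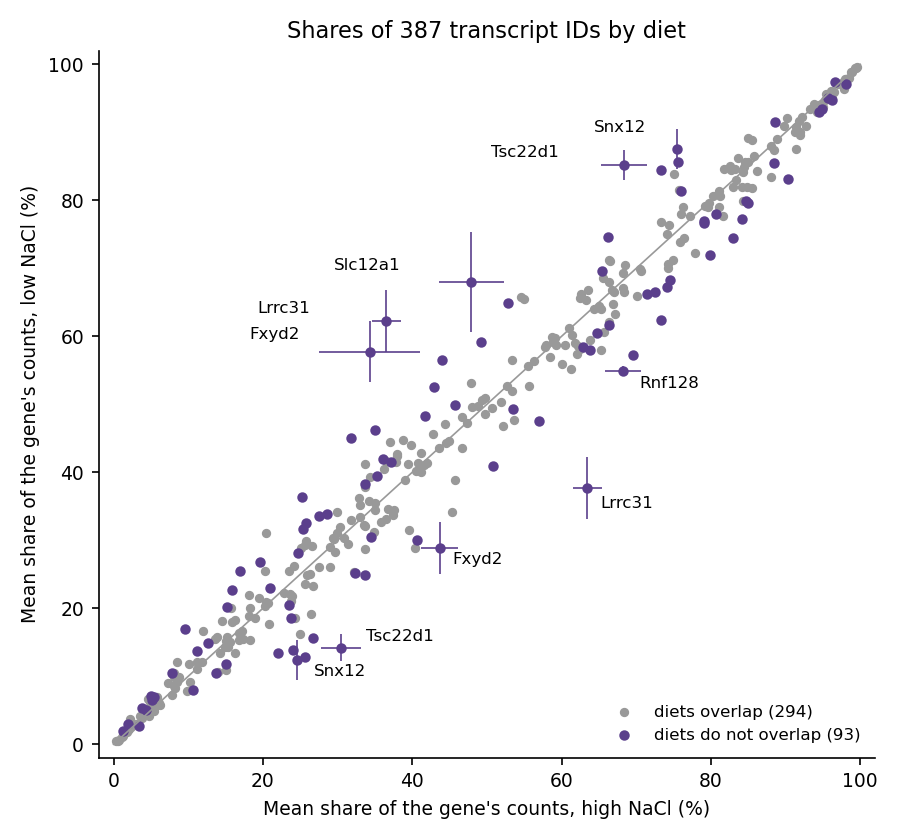
Mean share of each of the 387 IDs with high NaCl (x axis, %) against low NaCl (y axis, %), each point 1 ID, with SD bars (n = 3 per diet) for the labelled IDs. Most points lie near the diagonal of equal shares, and the IDs of Lrrc31, Fxyd2, Slc12a1 and Tsc22d1 lie farthest from it.

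Alternative starts gave several of the widest differences. Tsc22d1 encodes a transcription regulator of the TSC22 family, to which the aldosterone-induced Tsc22d3 also belongs. Its long form, uc007uri.2, begins at chr14:76415821 with a large coding first exon, and its short form, uc007urk.2, begins at chr14:76504510. The long form's share was 15.2, 11.9 and 15.6% with low NaCl and 28.6, 33.6 and 29.3% with high NaCl. The diets were apart, and the low-NaCl library 2 and the high-NaCl library 2 lay at the outer ends. The means were 14.2% ± 2.05 and 30.5% ± 2.69 (SD, n = 3 each), a log2 odds ratio of -1.41 (SE 0.27, adjusted p = 0.110). The short form made up 84.0, 87.7 and 83.9% with low NaCl and 70.3, 64.9 and 70.0% with high NaCl. In counts, the short form had 2965, 5458 and 4193 against 1414, 3181 and 1990, and the long form 537, 738 and 779 against 575, 1646 and 833. The gene's total was 115 ± 26.5 CPM (counts scaled to the library's total count after TMM normalization, edgeR's correction for differences in RNA make-up) with low NaCl and 75.3 ± 19.2 CPM with high NaCl.

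Fxyd2 encodes the gamma subunit that modulates the sodium pump Na,K-ATPase. Its 3 IDs share all exons but the first, and each was counted on its own first exon on chromosome 9. The most upstream, uc012gsc.1 (chr9:45399709-45400003, no coding base), held 62.7, 56.9 and 53.8% of the counts with low NaCl and 40.5, 35.3 and 27.1% with high NaCl. All low-NaCl shares lay above all high-NaCl shares, and the spread within the high-NaCl diet was wide. The log2 odds ratio was 1.41 (SE 0.33, adjusted p = 0.214). The middle start, uc009pfu.1 (chr9:45403138-45403300), has 19 coding bases in its first exon, which begin a GENCODE protein-coding transcript. Its share was 25.6, 28.0 and 33.1% against 41.3, 43.6 and 46.2% (log2 odds ratio -0.94, SE 0.29, adjusted p = 0.318). The third start, uc009pfv.1 (chr9:45406077-45406166), had 11.8, 15.2 and 13.1% against 18.2, 21.1 and 26.7% (log2 odds ratio -0.86, SE 0.31, adjusted p = 0.428). None of the 3 groups of values overlapped between diets. By counts, the leading start was the most upstream with low NaCl and the middle one with high NaCl. The counts were not corrected for exon length, and the most upstream first exon is the longest of the 3. The order by counts therefore need not be the order of RNA abundance. In counts, the most upstream start had 52265, 38334 and 33229 against 27015, 16672 and 15561. The gene's total was 1679 ± 339 CPM with low NaCl and 1430 ± 479 CPM with high NaCl, and these overlapped.

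Rnf128, an E3 ubiquitin ligase, starts at chrX:139563340 (uc029xnd.1) or at chrX:139610620 (uc009uki.2), with coding first exons of different sequence as printed above. The downstream start, uc009uki.2, held 45.8, 45.1 and 44.3% with low NaCl and 30.5, 34.5 and 30.3% with high NaCl. The low-NaCl libraries were close together, and none came near the high-NaCl values. The log2 odds ratio was 0.82 (SE 0.25, adjusted p = 0.318) on counts of 241, 249 and 290 against 133, 142 and 201.

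Arhgap24, a GTPase-activating protein for Rac, was counted on 2 first exons on chromosome 5. The upstream one, uc008yiy.2, held 18.8, 16.9 and 15.0% with low NaCl and 10.2, 10.4 and 8.24% with high NaCl, with no overlap (log2 odds ratio 0.93, SE 0.27, adjusted p = 0.316). Its counts overlapped between diets, 247, 260 and 247 against 181, 330 and 193. Those of the downstream start were 1069, 1274 and 1405 against 1600, 2832 and 2149. The gene's total was 35.3 ± 3.09 CPM and 57.6 ± 7.16 CPM. Over the 41 members counted on first exons (28 genes), 8 had all low-NaCl shares higher (19.5%, against 8.15% of all tested IDs) and 6 all lower (14.6%, against 7.86%), with a median log2 odds ratio of 0.10.

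**Figure D2:**
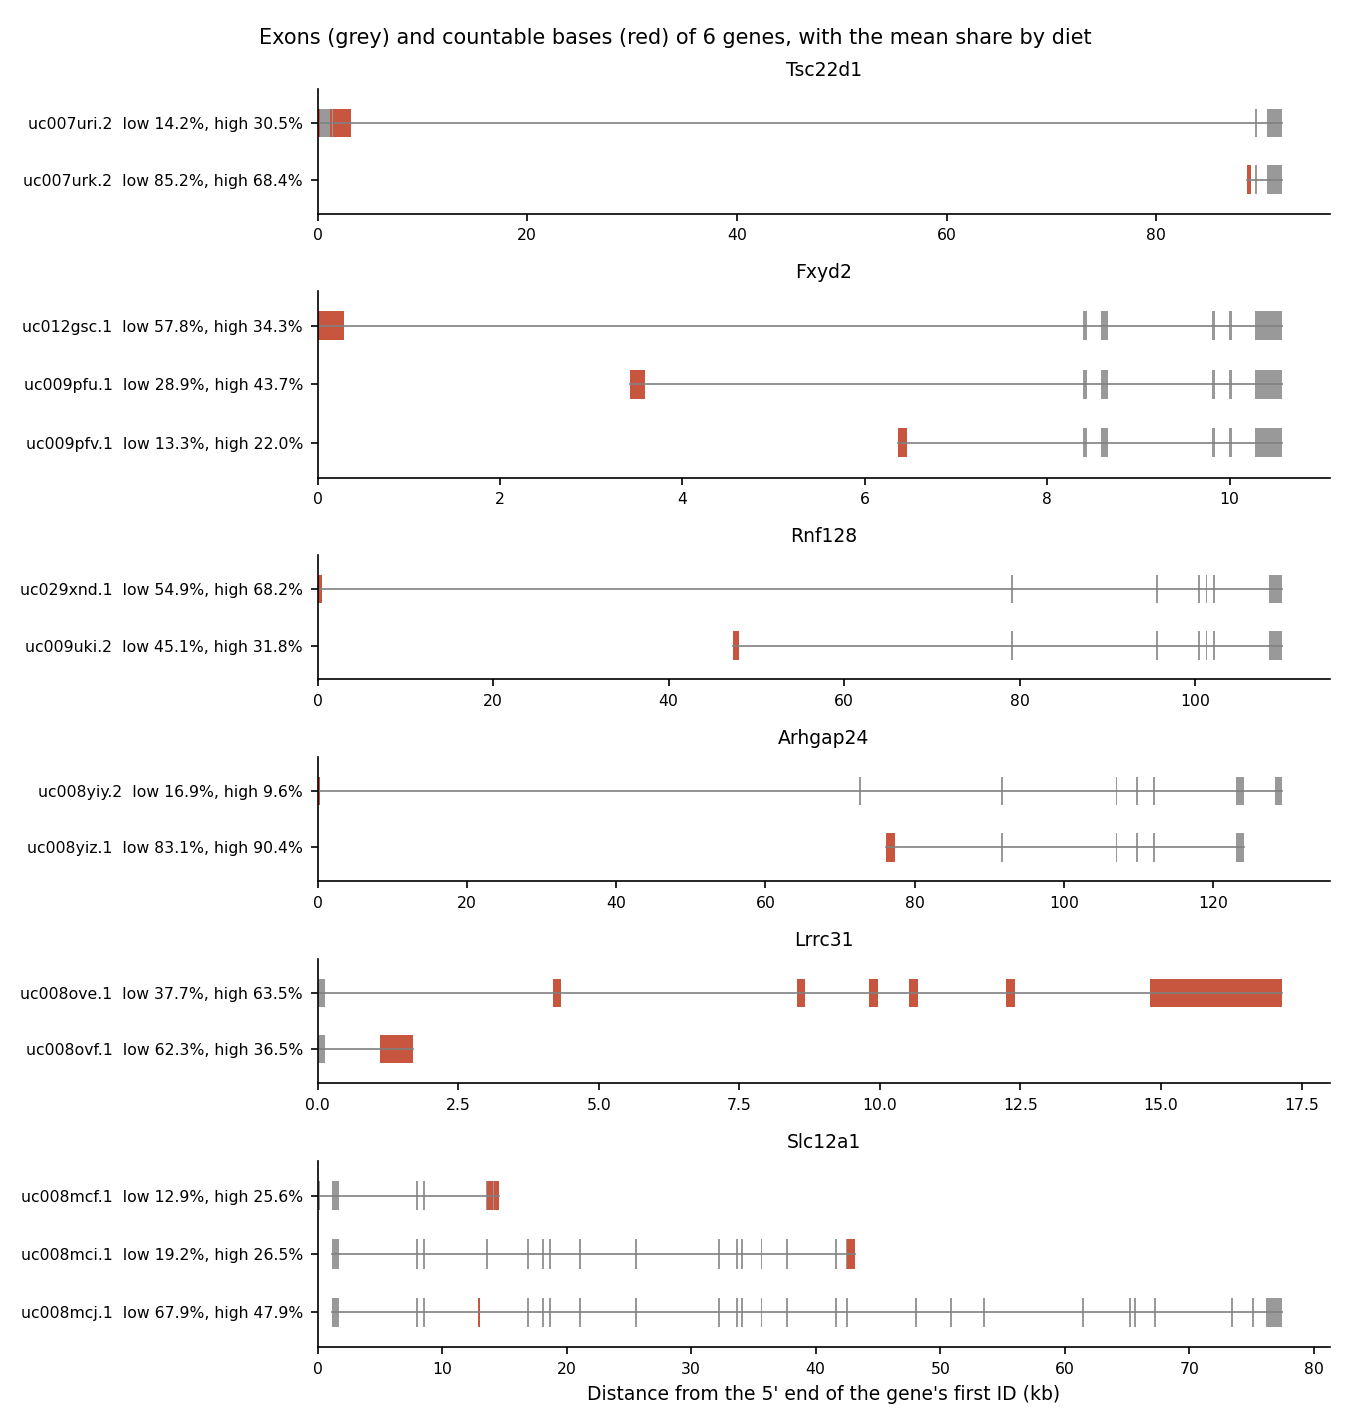
Exons (grey) and countable bases (red) of the IDs of 6 genes, by distance in kb from the 5′ end of the gene's first ID, with the mean share on each diet beside each ID. Tsc22d1, Fxyd2, Rnf128 and Arhgap24 were counted on separate first exons, Lrrc31 on an early last exon against all later exons, and Slc12a1 on 1 cassette exon against intronic ends.

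IDs with early ends inside introns were the second kind of wide difference. They are called early ends after their annotated structure. Reads of unspliced RNA or of a retained intron would fall on the same bases, and their part was not tested. Lrrc31, a leucine-rich repeat protein, gave the smallest p of all members. Its full-length ID of 7 exons, uc008ove.1 (chr3:30682680-30699822, minus strand), was set against a 2-exon ID with the same first exon, uc008ovf.1, whose countable last exon of 593 bases lies in an intron (chr3:30698122-30698714). The full-length share was 41.0, 32.5 and 39.7% with low NaCl and 63.7, 61.4 and 65.3% with high NaCl. The gap between the diets was far wider than the range within either. The means were 37.7% ± 4.56 and 63.5% ± 1.94 (SD, n = 3 each), and the log2 odds ratio was -1.52 (SE 0.25, adjusted p = 0.0691). The gene's total was 23.6 ± 3.82 CPM and 24.8 ± 6.59 CPM, within the spread, and on total counts alone their order turned, at 24.6 ± 4.09 and 23.4 ± 3.40 CPM. In counts, the full-length ID had 425, 374 and 326 with low NaCl and 710, 570 and 628 with high NaCl, and the early end 612, 776 and 495 against 405, 358 and 334. In CPM per kilobase of countable bases, the early end stood at 25.6, 29.5 and 19.5 with low NaCl and 18.9, 11.6 and 15.1 with high NaCl, and the full-length exons at 3.36, 2.69 and 2.43 against 6.27, 3.49 and 5.35. On this length-corrected scale the early end exceeded the rest of the gene in every library. A gene of the opposite strand overlaps countable bases of the full-length ID.

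Snx12, a sorting nexin of endosomal membrane traffic, ends in an intron as uc009tww.2 or farther downstream as uc009twv.2. The far end held 9.13, 13.5 and 14.7% with low NaCl and 24.8, 24.7 and 24.1% with high NaCl, from 115 to 201 and 191 to 402 counts. Here the high-NaCl libraries were close together and the low-NaCl ones were not, with no overlap. The log2 odds ratio was -1.21 (SE 0.28, adjusted p = 0.214).

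In 6 further genes of the 16 with the smallest p, an early intronic end held the larger share with low NaCl. For Dtd2, a D-aminoacyl-tRNA deacylase, it held 83.2, 85.5 and 84.4% against 66.3, 79.2 and 74.4%. For H13, the signal peptide peptidase, a retained-intron end held 53.6, 59.2 and 57.0% against 40.2, 47 and 44.8%. The secernin gene Scrn3 had 34.4, 39.7 and 34.8% against 24.5, 27.9 and 23.4%. In these 3 genes the diets did not overlap. Ntpcr, a nucleoside triphosphatase, gave 21.6, 27.9 and 27.0% against 14.5, 19.8 and 16.6%. Prdm2, a zinc finger protein with a methyltransferase domain, gave 23.5, 23.2 and 21.5% against 12.7, 18.8 and 16.1%, and the endocytosis adaptor Eps15l1 78.0, 73.5 and 72.5% against 67.8, 63.3 and 67.8%. These did not overlap either, and the adjusted p of the 6 genes' early ends was 0.318 to 0.578 (edgeR). Casz1, a zinc finger transcription factor, had an early end, uc008vvl.1, at 20.2, 17.5 and 15.5% against 23.8, 18.2 and 20.5%, which overlapped.

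Sec14l1, a SEC14-like lipid-binding protein, went the other way. Its early end uc007mmz.2 held 16.8, 12.1 and 12.9% with low NaCl and 30.5, 18.5 and 23.3% with high NaCl (log2 odds ratio -0.96, SE 0.32, adjusted p = 0.375). The gene's total was 92.2 ± 13.4 CPM against 29.4 ± 4.77 CPM, with no overlap. The early end itself had 730, 456 and 461 counts against 367, 232 and 266, and the full-length ID 3605, 3277 and 3113 against 833, 1018 and 873. Both IDs were therefore lower with high NaCl, the full-length one by the larger factor. Tmco6 overlapped between diets, its early end at 23.1, 25.9 and 27.1% against 39.1, 26.3 and 31.3%. In Tmco6 and Casz1 the small gene p came from an ID with under 100 counts in some library.

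**Figure D3:**
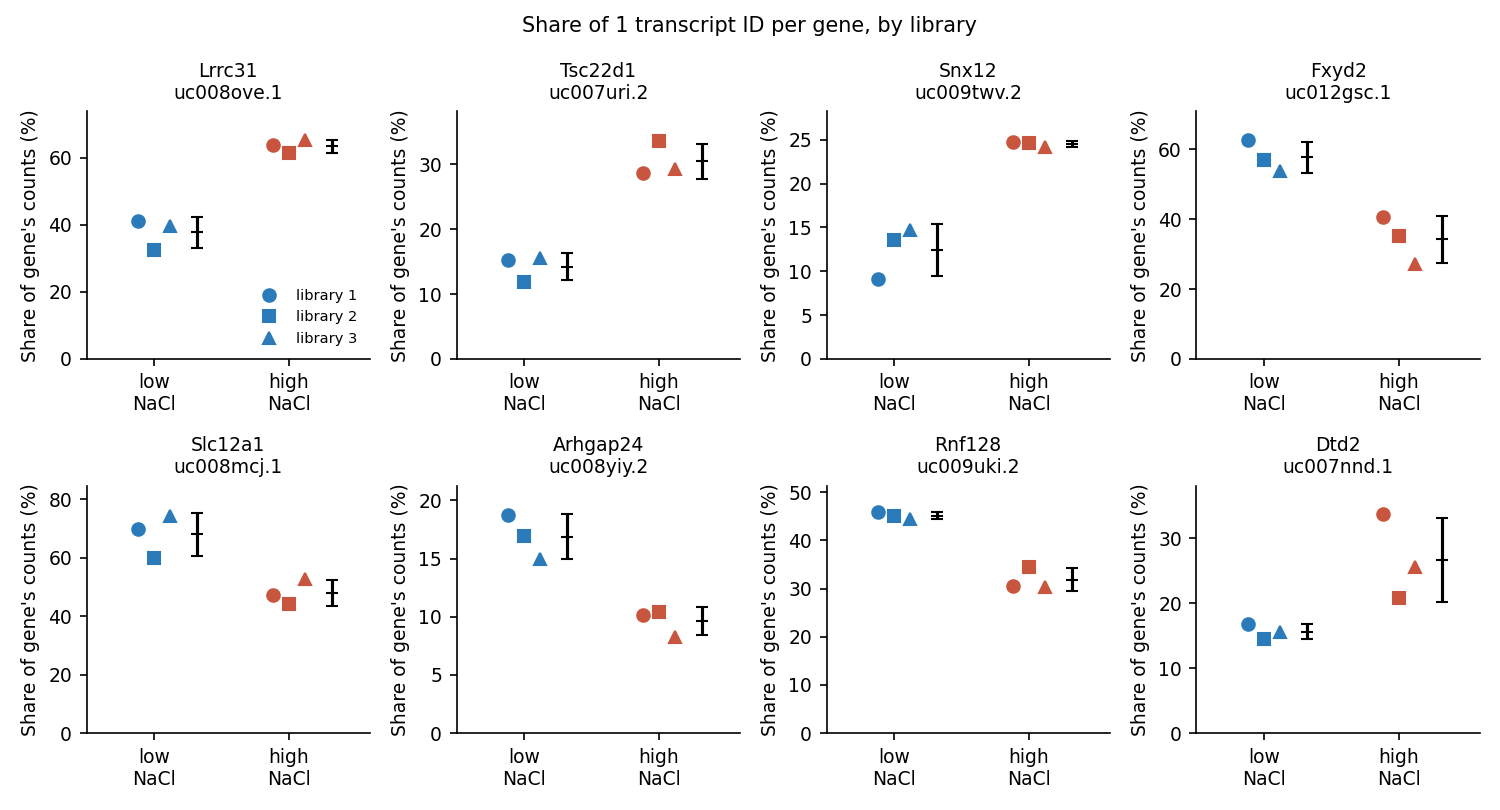
Share of the gene's counts (y axis, %) for 1 ID of each of 8 genes in the 3 low-NaCl (blue) and 3 high-NaCl (red) libraries, marker shape giving the replicate number, black bars the mean ± SD. The 8 are the member genes with the smallest p in these same data, and none passed the edgeR test. In all 8 panels the diets do not overlap, as in Rnf128 with 44.3 to 45.8% against 30.3 to 34.5%. That separation is in part a product of how the genes were picked.

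IDs with early intronic ends were described as a class as well, with the same limit that reads of unspliced RNA would be counted on them. Of the 112 members counted on an upstream last exon (106 genes), 71 had a log2 odds ratio above 0, with a median of 0.13. All low-NaCl shares were higher for 24 of them (21.4%, where 8.15% of all tested IDs were) and lower for 3 (2.68%, where 7.86% of all tested IDs were). The 3 were uc008mcf.1 of Slc12a1, uc007mmz.2 of Sec14l1 and uc008ack.2 of Brwd1. The 143 members counted on other last exons, many of them companions of the early ends and so their mirror image, had a median of -0.06, with 9 all higher (6.29%) and 26 all lower (18.2%). Outside the members, 683 tested upstream last exons had a median of 0.11, with 68 all higher (9.96%) and 27 all lower (3.95%). Beside the leading genes, the 24 included Slc11a2, the iron and metal transporter DMT1, at 41.6% with low NaCl against 37.2% with high NaCl, and Lamp2, a lysosomal membrane protein with alternative last exons, at 49.8% against 45.7%. Both were named after their values were seen.

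Library by library, the median deviation of the 112 upstream last exons from their mean log2 odds over all libraries was 0.11, 0.07 and 0.05 with low NaCl and -0.0047, -0.09 and -0.03 with high NaCl. The libraries were close together. The diets did not overlap, and the high-NaCl library 1 was the highest of its diet. For the 24 members annotated as retained introns the order followed the library more than the diet, at -0.06, 0.24 and 0.20 with low NaCl and -0.25, 0.19 and -0.13 with high NaCl. Mitochondrial counts made up 21.8, 20.5 and 21.0% of the low-NaCl and 29.9, 21.9 and 28.7% of the high-NaCl libraries, so that the high-NaCl libraries 1 and 3, the richest in mitochondrial counts, were the lowest in retained introns. Their part in the difference was not tested.

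**Figure D4:**
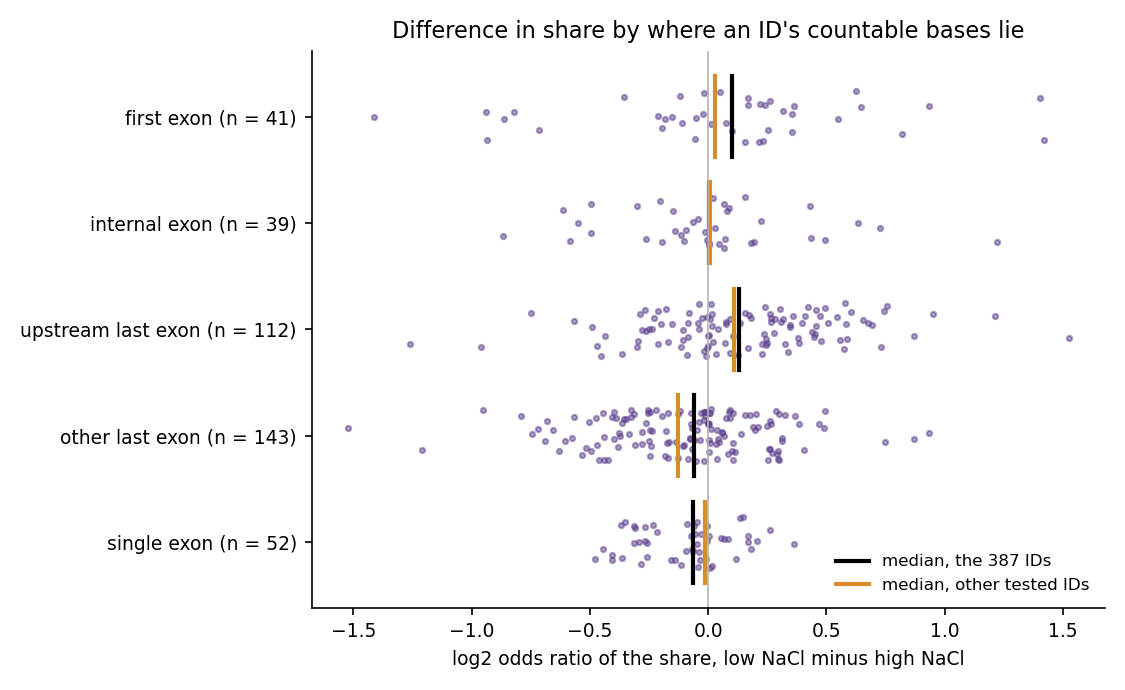
log2 odds ratio of the share, low-NaCl minus high-NaCl (x axis), for the 387 IDs by where their countable bases lie (y axis, each point 1 ID, scattered vertically for visibility), with the class median of the 387 IDs in black and of the other tested IDs in orange. Upstream last exons have medians of 0.13 and 0.11, and other last exons -0.06 and -0.13.

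Alternative internal exons were followed in 39 members, of which 3 had all low-NaCl shares higher (7.69%, against 8.15% of all tested IDs) and 4 all lower (10.3%, against 7.86%), with a median log2 odds ratio of 0.0037. These shares were near those of all tested IDs. Slc12a1, the sodium-potassium-chloride cotransporter NKCC2 of the thick ascending limb, gave the widest difference. Its ID uc008mcj.1, counted on the first of the 3 cassette exons alone, held 69.7, 59.9 and 74.3% with low NaCl and 47.1, 44.0 and 52.6% with high NaCl. The A and F exons had no countable bases among the members. The share therefore sets the B exon against intronic and early ends and does not measure the choice between the 3 exons. The diets did not overlap, and the means were 67.9% ± 7.33 and 47.9% ± 4.32 (log2 odds ratio 1.22, SE 0.31, adjusted p = 0.250). The remaining counts came from uc008mcf.1, an ID of 5 exons counted on the intron between the A and F exons and beyond, and uc008mci.1, an ID of 16 exons with an early last exon. The former held 10.5, 18.4 and 9.67% against 19.0, 27.7 and 30.1% (log2 odds ratio -1.26, SE 0.37, adjusted p = 0.318). The latter held 19.8, 21.7 and 16.1% against 33.9, 28.3 and 17.3%, which overlapped. In counts, the first cassette exon had 1804, 1516 and 1982 against 558, 619 and 757, while uc008mcf.1 had 272, 466 and 258 against 225, 389 and 434.

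Slc12a1 is a defining gene of a neighbouring tubule segment, and the markers of that segment were also higher with low NaCl. The summed level of Slc12a1, Umod and Cldn16 was 91.6 to 105 CPM with low NaCl and 45.5 to 64.8 CPM with high NaCl. Slc12a1 itself made up the larger part of this sum. Umod alone was at 21.4 to 24.2 and 14.6 to 20.8 CPM, and Cldn16 alone at 8.10 to 16.6 and 3.88 to 7.02 CPM. The 6 principal cell markers summed to 3093 to 4749 CPM with low NaCl and 8818 to 11029 CPM with high NaCl, led by Aqp2, with Fxyd4 and Hsd11b2 at only 0.0937 to 2.36 CPM, and the 6 intercalated cell markers to 2445 to 4728 and 1687 to 1891 CPM, with none of either list at 0. Of the principal cell markers, the water channels Aqp2 and Aqp3 and the sodium channel subunit Scnn1g were thus well counted. Avpr2 was low, at 3.07 to 4.88 CPM with low NaCl and 6.10 to 8.09 CPM with high NaCl. The 3 connecting tubule markers summed to 28449 to 31753 and 30260 to 39261 CPM, nearly all of it Klk1. The other markers of this list were higher with high NaCl and did not overlap between diets. Calb1 was at 363 to 478 CPM with low NaCl and 899 to 1175 CPM with high NaCl, and Trpv5 at 16.1 to 35.1 and 48.2 to 98.3 CPM. The 6 proximal tubule markers stayed at 20.8 to 37.3 CPM in all libraries, and the 3 distal convoluted tubule, 5 endothelial, 5 leukocyte and 5 stromal markers at 0.0903 to 4.47 CPM summed over each list. The endothelial sum did not overlap between diets, at 0.398 to 1.78 CPM with low NaCl and 3.17 to 3.41 CPM with high NaCl. The stromal sum did not either, at 1.93 to 4.47 and 1.82 to 1.91 CPM. Those of the distal convoluted tubule and the leukocytes overlapped. Emcn and Ptprc, with 2821 and 1346 countable bases, were at 0 in every library. So were Pecam1, Cd68, Pdgfrb and Alas2, which had only 0 to 45 countable bases and so could hardly be counted. The 4 podocyte markers were at 5.22 to 38 CPM and the 5 red blood cell markers at 0.187 to 6.95 CPM. In bulk RNA, fewer cells of a type and less RNA per cell cannot be told apart. The part of the mixture in the shares of Slc12a1, Fxyd2 or the other genes was not tested.

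**Figure D5:**
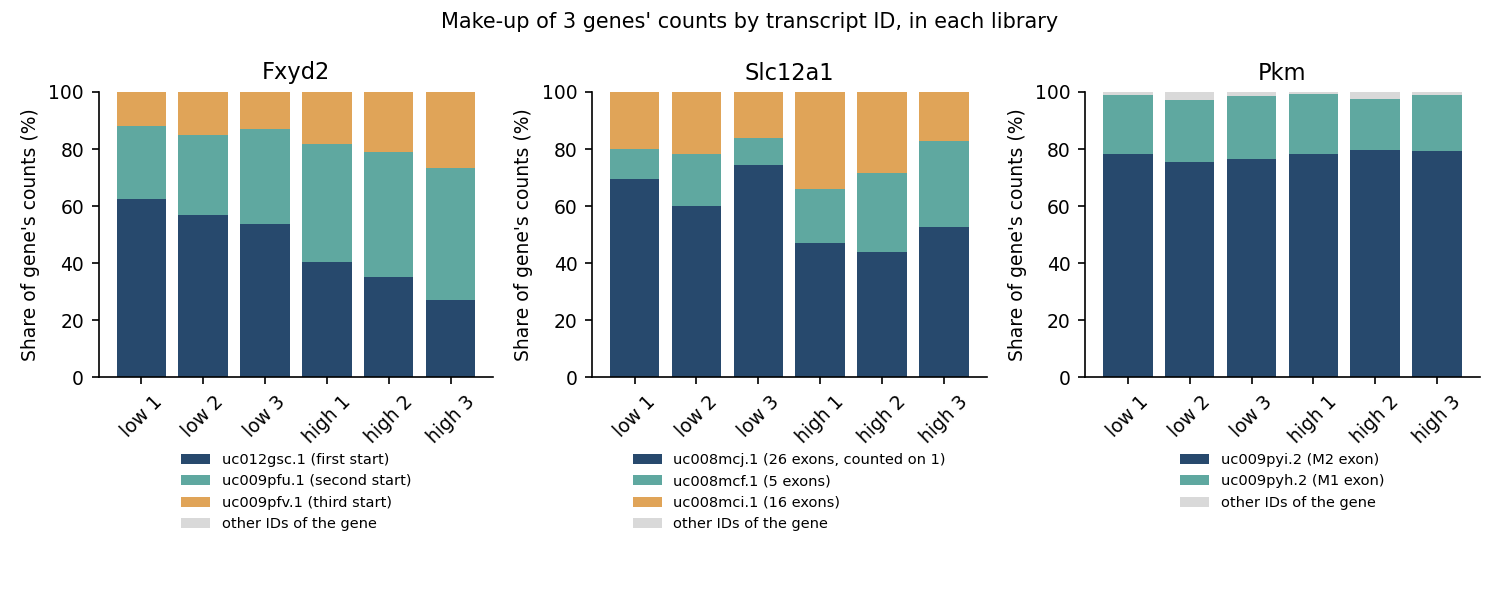
Make-up of the counts of Fxyd2, Slc12a1 and Pkm by transcript ID (stacked bars, % of the gene's counts) in each of the 6 libraries. The lowest segment, uc012gsc.1 of Fxyd2 and uc008mcj.1 of Slc12a1, is taller in each low-NaCl than in each high-NaCl library, while the Pkm exons stay at 75.3 to 79.6% and 18.0 to 21.9%.

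Pkm, the pyruvate kinase of most tissues, gave the clearest readout of an exon choice, since its M1 and M2 exons have the same length and both were countable. The M2 exon held 78.1, 75.3 and 76.5% of the gene's counts with low NaCl and 78.4, 79.6 and 79.3% with high NaCl. The values did not overlap, though those of the libraries numbered 1 were close (log2 odds ratio -0.20, SE 0.25, adjusted p = 0.847). The M1 exon held 20.8, 21.8 and 21.9% against 20.8, 18.0 and 19.7%. The M2 exon was thus the more frequent in every library, at 615 to 852 CPM per kilobase of countable bases against 144 to 227 for the M1 exon.

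Other members come from lists of genes that matter for this tissue or for RNA processing itself. Of 13 lists, 10 held at least 1 of the 185 genes, and the edgeR test called none of these 13 genes, beside 0.0775% of all tested genes. Tsc22d1 and Fxyd2, the members of the sodium transport and aldosterone list, were the only ones of the 13 at an unadjusted p under 0.05. The acid-base, epithelial splicing target and circadian lists held no member. For water transport, Aqp6, an aquaporin of intercalated cells, had an early last exon at 7.88, 12.3 and 11.2% against 7.67, 7.75 and 8.70%, so that the diets overlapped (log2 odds ratio 0.40, adjusted p = 0.714). Its gene total was 200, 247 and 461 CPM with low NaCl and 154, 79.1 and 174 CPM with high NaCl.

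Among genes of RNA processing, Son, a splicing cofactor of nuclear speckles, had uc007zxy.1 at 41.8, 39.8 and 45.5% against 35.3, 42.3 and 36.2%. Rbbp6, a protein of the 3′ end processing machinery, had its early end at 49.9, 42.4 and 35.7% against 36.3, 39.4 and 38.1%. Hnrnpu, an abundant nuclear RNA-binding protein, had a single-exon ID at 14.5, 16.8 and 15.9% against 11.7, 16.4 and 17.3%. All 3 overlapped between diets, with adjusted p of 0.803 to 0.964 (edgeR).

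Metabolic, stress and structural genes made up the rest of the lists. The glycolytic enzyme Aldoa had the ID of its upstream first exon, uc009jsv.2, at 48.9, 35.5 and 39.2% against 42.5, 34.0 and 41.9%. For the mitochondrial phosphate carrier Slc25a3, the main ID held 99.2 to 99.7% in every library, and that of Tln1, the integrin-binding protein talin, 98.7 to 99.0%. The ribosomal protein gene Rpl13a had 96.6 to 98.4% in its main ID. Nfe2l2, the oxidative stress factor NRF2, had 92.6 to 95.2%. Spred1, an inhibitor of MAPK signalling, had a single-exon ID at 53.8 to 61.3%. In these 6 genes the diets overlapped, with adjusted p of 0.816 to 0.998 (edgeR).

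The genes with 4 member IDs showed how shares split further. Auh, a mitochondrial enzyme of leucine breakdown, had its full-length ID at 81.1, 78.0 and 79.8% with low NaCl and 83.9, 85.5 and 85.6% with high NaCl, and its 3 early ends had means of 7.17, 10.5 and 2.71% against 5.00, 7.82 and 2.20%. The early ends were all on the same side, and for 2 of them the diets did not overlap. Brwd1, a bromodomain protein, had its shortest form uc008acn.2 at 50.8, 47.9 and 40.2% against 33.9, 34.0 and 37.2%. Its full-length ID was at 22.1, 24.7 and 28.7% against 31.5, 33.9 and 31.7%, and a later early end, uc008ack.2, at 10.5% ± 0.524 against 13.8% ± 2.39. Thus 2 early ends of 1 gene lay on opposite sides. Cyhr1 kept its main ID at 81.4 to 84.3% in every library, and its retained-intron ID uc007wlg.1 varied more within a diet than between them, at 4.89, 8.27 and 6.72% against 2.93, 7.24 and 3.53%.

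Variation between libraries of 1 diet was widest, on the log2 odds scale, in Cd200, Top3b, Cope, Gna13 and Slc25a3. Cd200, a membrane glycoprotein of immune regulation, had its full-length ID uc007zim.1 at 76.7, 89.2 and 85.5% with low NaCl and 60.2, 83.3 and 81.5% with high NaCl. Library 1 was the lowest of each diet. The same held for Gna13, a G protein alpha subunit, at 85.6, 93.0 and 88.8% against 78.2, 91.8 and 84.9%. For Top3b, a topoisomerase, library 1 was instead the highest and library 2 the lowest, at 34.2, 18.5 and 25.7% against 38.8, 15.3 and 28.4%. Across the 185 genes, the log2 odds of the member ID with the most countable bases were set against their mean over the libraries of the same diet. The median deviation was negative in both libraries numbered 1 (-0.08 and -0.07 with low and high NaCl). It was positive in those numbered 2 (0.05 and 0.07). Centring within a diet takes out any difference between the diets. The libraries numbered 1 shared a sequencing lane. The other low-NaCl libraries were on another lane and the other high-NaCl libraries on yet another, per the file headers, so beyond the number 1 pair lane and diet cannot be told apart. Within that pair the leading differences had the same direction: a fit with lane as a term gave log2 odds ratios of -1.34 for Lrrc31 uc008ove.1, -1.16 for Tsc22d1 uc007uri.2, 1.30 for Fxyd2 uc012gsc.1 and 1.36 for Slc12a1 uc008mcj.1, with adjusted p of 0.397 to 0.432 (edgeR).

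Just inside the minimum of 100 counts stood uc007iiv.1 of Nsg2 and uc009upy.1 of Iqsec2, both with a lowest count of 100, and uc007zio.1 of Cd200 with 101. Just outside stood IDs of Srsf2 with 99 and of Camta1 and LTO1 with 98 each. The Nsg2 ID held 6.58, 7.80 and 6.50% against 6.29, 4.01 and 7.13% of its gene's counts, and the Iqsec2 ID 4.65, 5.51 and 5.74% against 4.30, 5.06 and 4.85%.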

How the data were processed

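Reads of 6 libraries were deposited as raw counts per UCSC transcript ID, made by the authors with featureCounts 1.5.0-p3 over exons of an mm10 annotation with no strand or overlap option, per the file headers. Subread, FastQC and edgeR also appear in the submitters' processing notes, but which program aligned or trimmed the reads is not given in the sources used here. IDs were matched to GENCODE vM21 protein-coding genes (46876 of 59121 IDs, 88.8% of counts). IDs that passed filterByExpr by diet, in genes with at least 2 of them, were tested with edgeR 4.0.16 (limma 3.58.1, DESeq2 1.42.0, R 4.3.3, Python 3.11.15). The fit had 12 columns, the count of the ID and of the rest of its gene in each library, terms for library and ID, and the tested ID by diet term, in which scaling between libraries cancels (TMM factors, robust glmQLFit, glmQLFTest). SE is the absolute log2 odds ratio divided by the square root of F. A gene's p is the Simes p over its IDs. CPM is a summed count divided by the TMM-effective library size (total count times TMM factor). Scaling gene totals and marker sums to total counts was an alternative chosen after the data were seen. The procedure was tested on simulated data with the same spread for every ID and no lane or replicate structure. That setting was simpler than these data. The 6 libraries were distinct, each pair of a diet differing by more than sampling noise.

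The members and gene lists were chosen with earlier results of these data known. Genes named were those called, filled up to 16 by smallest p, up to 3 members of each list, the 4 genes with the most member IDs, and the 3 IDs on each side of the count minimum. Of 387 members, all passed filterByExpr. Precision depends on the count of an ID. Alternatives were other scalings, filters, tests, matching and strand rules, lane or replicate number as terms, and leaving out libraries.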

Additional observations from a re-analysis of the deposited data

How the results depend on the processing

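The count of members called was 0 in the reported edgeR fit and differed with the low-count filter, the tool and the replicate block. Fitting only IDs with 100 or more counts in every library limited the gene's counts in the share, the estimated spread and the adjustment to the chosen members. This fit gave 15 called IDs, all members, and 7 called genes, all of them members. It put 64 members at an unadjusted p under 0.05. Requiring a mean of 100 counts gave 15 called IDs, 13 of them members, 61 members at an unadjusted p under 0.05, and 5 genes, 4 of them members. DESeq2 gave 14 IDs (7 members) and 5 genes (2 members). diffSpliceDGE gave 1 ID, and lane as a term gave 0 IDs and 0 genes. Without a filter, 17 members were at an unadjusted p under 0.05. Leaving out single libraries called 0 members each time. It gave 0 to 4 called IDs and 0 to 2 called genes over all tested (4 and 2 when low-NaCl library 1 was left out, 0 of either when low-NaCl library 2 or 3 was), 19 to 48 members at an unadjusted p under 0.05 (19 without low-NaCl library 2), and 59 to 79 member genes whose diets did not overlap, against 49 with all libraries (79 without low-NaCl library 1, 76 without high-NaCl library 2). These were 31.9 to 42.7% of the member genes, where 28.3 to 36.5% of all tested genes did not overlap, against 26.5 and 19.3% with all libraries. Shares that are apart stay apart when a library is left out, so the number that did not overlap could not fall. Fewer IDs or libraries entered several of the fits. The cause of the differences in calls was not tested.

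With the replicate block (replicate number as added terms) 9 IDs were called, 5 of them members (Lrrc31, Tsc22d1 and Fxyd2), in 4 genes, 2 of them members, with 60 members at an unadjusted p under 0.05. Same-numbered libraries deviated together with r = 0.21, 0.26 and 0.06 over the tested IDs and 0.62, 0.62 and 0.18 over the members. Each library correlated best with its own number, which is a hint from the data and not from the design. The numbers were not taken to pair the samples because 1 of the correlations over the tested IDs was under 0.1, although none over the members was, and this choice was made with the counts under the block already known.

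Of small differences, the log2 odds ratio turned sign without the libraries over 25% mitochondrial counts for Hnrnpu (-0.0711), Rpl13a (0.14) and Cyhr1 (-0.17), and under diffSpliceDGE for Tln1 (9.5e-05). Leaving out single libraries gave -0.13 to 0.13 for Tln1, -0.27 to 0.13 for Aldoa, -0.33 to 0.40 for Slc25a3, -0.0422 to 0.26 for Nfe2l2 and -0.12 to 0.21 for Hnrnpu. The other named differences kept their direction under every alternative that gave them a value.

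Scaling gene totals and marker sums to total counts, an alternative chosen after the data were seen, moved the median log2 ratio of the tested genes' totals from 0.0081 to 0.11 and turned that of Lrrc31 (from -0.07 to 0.0681). The other 5 gene totals and 11 marker sums kept their direction, and the diets then overlapped in the stromal sum.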
